A study of Mus musculus with 9 samples.

Results

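The chemokine system of the mouse heart was read as 57 genes, 37 encoding chemokine ligands and 20 encoding chemokine receptors, of the 41710 gene names in the deposited transcript table. Members were taken by name from the numbered Ccl and Cxcl ligands with Cx3cl1 and from the numbered Ccr, Cxcr and Ackr receptors with Cx3cr1, not every such name being analysed here, and the reads of all transcripts with the same gene name were added up. The libraries came from whole hearts of male FVB/N mice at an age of 8 months, 3 libraries in each of 3 groups. Tg-RKIP mice carry a transgene for RKIP, the RAF kinase inhibitor protein encoded by Pebp1, which the alpha-MHC promoter expresses in the myocardium. The libraries labelled Tg-GRK2 are annotated with a transgene for the G protein-coupled receptor kinase GRK2, whose promoter is not given in the sources used here. The FVB libraries are from non-transgenic controls of the same strain. Each group comprised 3 mice. The p-values weigh differences between groups against the spread of libraries within groups. That spread was estimated over all 3 groups together, with information shared across genes.

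Chemokines are small secreted proteins that direct the movement of leukocytes through G protein-coupled receptors. Homeostatic chemokines such as Cxcl12 and Ccl21a are made constantly by stromal and endothelial cells, whereas inflammatory chemokines such as Ccl2 and Cxcl10 are induced by cytokines. Atypical receptors (the Ackr genes) bind chemokines without classical G protein signalling and remove them from the extracellular space. Chemokine receptors are substrates of G protein-coupled receptor kinases, which prepare them for arrestin binding.

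The libraries held between 25458108 and 33447654 reads. The transgene check separated the groups only for RKIP: Pebp1 reached 16199 ± 208 TPM (transcript level scaled for length and depth, mean ± SD, n = 3) in Tg-RKIP hearts, against 325 ± 4.54 TPM in FVB hearts, whereas Grk2 in the libraries labelled Tg-GRK2 was at 27.3 ± 2.90 TPM against 27.1 ± 1.05 TPM in FVB (log2 fold change 0.05, SE 0.038, adjusted p = 0.354). Cardiomyocyte markers had a summed level of 34331 to 36194 TPM in every library, while in normalised counts 5 of 6 fell in Tg-RKIP against FVB (median log2 fold change -0.93), and 6 of 6 adipocyte markers rose (median 2.64). The part of this shift in the chemokine values was not tested. Mitochondrially encoded genes took 11.5 to 11.8% of reads for Tg-RKIP, 22.4 to 22.9% for the libraries labelled Tg-GRK2 and 22.9 to 23.2% for FVB. Replicate 1 of the libraries labelled Tg-GRK2 stood apart in its share of 18S ribosomal RNA reads, 1.31% against at most 0.270% in the other 8 libraries, and no called chemokine difference turned its direction without it. Fold changes here are on a scale normalised by the trimmed mean of M-values (TMM), on which the median gene differed by 0.0085 (log2) between Tg-RKIP and FVB. On the TPM scale the same median was 0.43 higher in Tg-RKIP hearts, so TPM are used here for levels and for comparing genes with each other, and normalised reads for comparing groups. The summed levels of marker lists are in TPM, so their differences between Tg-RKIP and FVB include that shift.

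Most measurable chemokine genes were higher in Tg-RKIP hearts than in FVB hearts. Of the 57 genes, 53 had at least 1 read and 37 passed the filter on low counts (24 ligands and 13 receptors). Of these 37, 28 rose and 4 fell in Tg-RKIP against FVB at an adjusted p below 0.05 (edgeR quasi-likelihood test with Benjamini-Hochberg adjustment over all 15504 genes tested), where 73.9% of all genes tested were called, 36.8% as higher and 37.1% as lower. By at least 1 log2 unit, 14 members rose and 1 fell, against 10.2% and 6.12% of all genes. Of the 24 ligands 17 rose, and of the 13 receptors 11. The median log2 fold change was 0.77 over the 37 members and 0.0085 over all genes. A gene passed the filter with enough reads in 3 libraries, so through 1 group alone. With only the FVB and labelled Tg-GRK2 libraries, 30 members passed, and 14825 genes in place of 15504. Some members thus entered through the Tg-RKIP libraries, where they are high, and the counts and the median include them. The 4 that fell were Cxcl12, Ccl11, Cxcl9 and the atypical receptor Ackr3. Under scaling to the library total 2 members fell, and the share of higher genes among all genes called moved from 49.8% to 78.6%. The groups did not overlap in normalised reads for 32 of the 37, where 75.7% of all genes did not overlap. In a bulk sample more RNA per cell and more cells that make it cannot be told apart.

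The libraries labelled Tg-GRK2 differed from FVB in few chemokine genes. Here 5 members rose (Ccl8, Ackr2, Cx3cr1, Cxcl12 and Ackr3) and 3 fell (Cxcl10, Cxcl9 and Cxcr6), against 12.2% of all genes in each direction, and 29 passed in neither direction. The members called, 21.6% of the 37, stood near the 24.5% called among all genes. No member rose by at least 1 log2 unit and 2 fell by as much, against 0.929% and 0.651% of all genes. In 14 members the groups did not overlap, against 37.1% of all genes. The log2 fold changes of the 29 others ran from -0.80 to 1.16. Between the 2 transgenic groups, 26 members were higher and 3 lower in Tg-RKIP hearts, where 37.9% and 36.6% of all genes were called, 74.5% together. By at least 1 log2 unit 17 were higher and 1 lower, against 9.89% and 6.91% of all genes, and 32 did not overlap, against 76.4%. Every comparison shares a group with another, so the counts are given side by side and are not independent of each other.

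**Figure D1:**
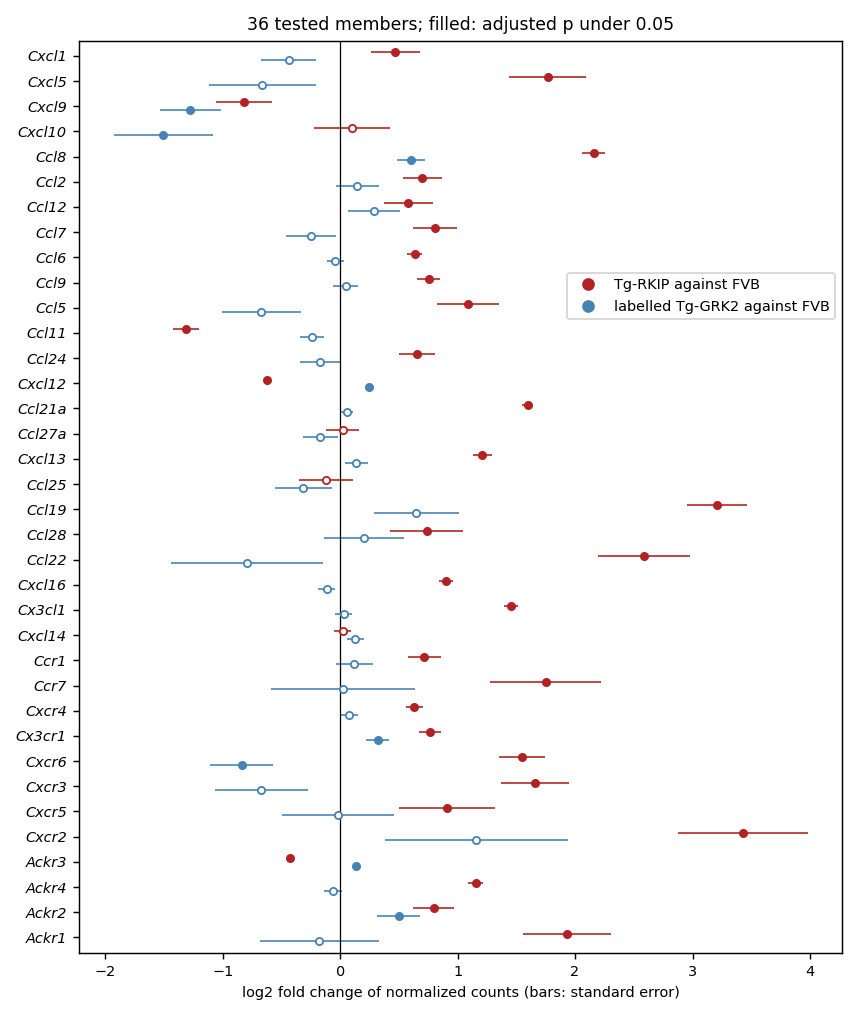
Log2 fold change of TMM-normalised counts (horizontal axis, bars are standard errors) of 36 of the 37 tested chemokine genes, ligands above and receptors below, for Tg-RKIP against FVB (red) and for the libraries labelled Tg-GRK2 against FVB (blue), with filled points for an adjusted p under 0.05. Red points lie to the right of 0 for 28 filled genes, from Cxcl1 at 0.47 to Cxcr2 at 3.43. Blue points run from -1.51 (Cxcl10) to 1.16, with 5 filled to the right of 0 and 3 to the left.

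The most abundant chemokine transcripts of the control heart were homeostatic. In FVB hearts Cxcl12 led with 84.1 ± 0.566 TPM (mean ± SD, n = 3 here and in all groups), followed by its scavenger receptor Ackr3 with 46.2 ± 0.475 TPM and by the lymphoid chemokine Ccl21a with 33.1 ± 0.722 TPM. Ccl6 (17.8 ± 1.01 TPM), Cxcl14 (12.8 ± 1.31 TPM) and Cxcl16 (10.2 ± 1.30 TPM) came next. The ranges of these first 4 genes did not overlap, while Ccl11, Ccl9 and Ccl8, at 8.01, 7.98 and 7.21 TPM, lay within their spread of each other. In FVB 14.1 TPM of Ccl6 (28.0 in Tg-RKIP hearts) were on a 776-base transcript listed as a retained intron. For Cxcl16 7.13 TPM were on one listed for nonsense-mediated decay, and for Ccl9 5.52 TPM on a 398-base processed transcript. The protein-coding transcripts of Ccl6, Cxcl16 and Ccl9 held 3.66, 2.84 and 2.46 TPM, so these ranks depend on the deposited split. In Tg-RKIP hearts the order at the top changed, with Ccl21a at 133.7 ± 4.69 TPM above Cxcl12 at 105.5 ± 1.11 TPM. Ackr3 (45.8 ± 0.390 TPM), Ccl8 (43.1 ± 1.69 TPM) and Ccl6 (36.4 ± 1.97 TPM) followed there. Summed over all members, the level was 563 to 577 TPM in Tg-RKIP hearts, 313 to 319 TPM in the group labelled Tg-GRK2 and 287 to 290 TPM in FVB. The sums of normalised reads lay much closer together, at 14789 to 15056, 16063 to 16248 and 14396 to 14498, and without Cxcl12 they were 10023 to 10220, 7291 to 7456 and 7009 to 7062.

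**Figure D2:**
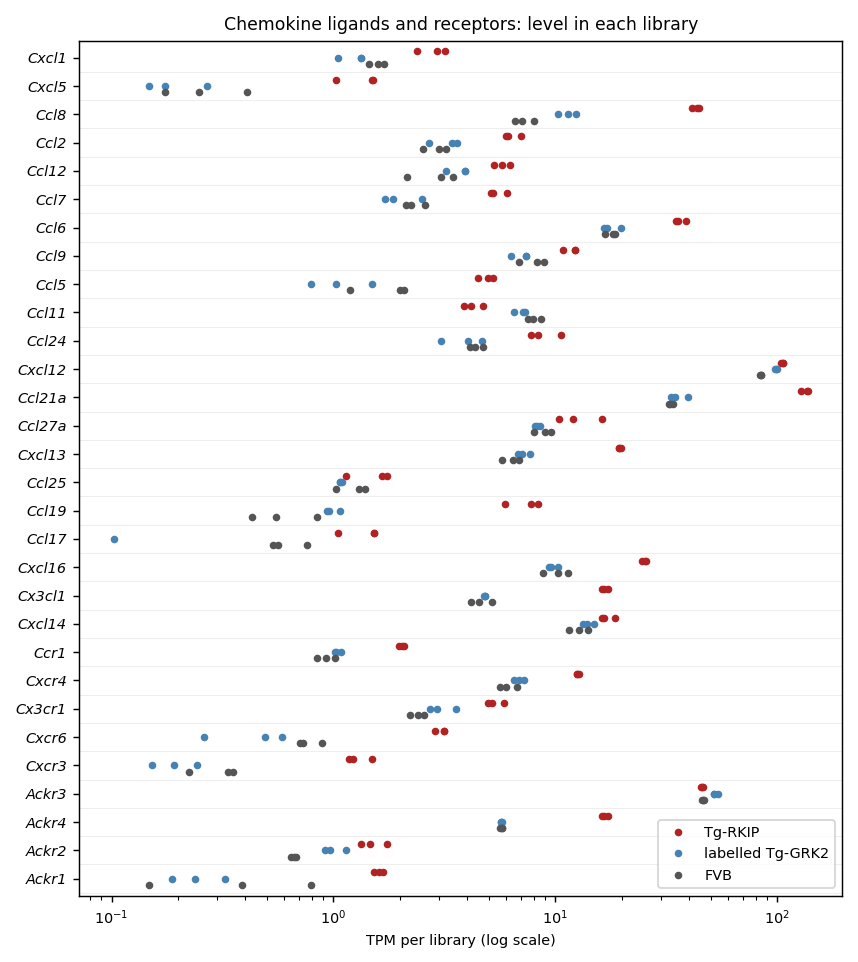
TPM in each library (log scale) of 30 chemokine genes whose mean reached 1 TPM in at least 1 group, with 3 points per group in red (Tg-RKIP), blue (labelled Tg-GRK2) and grey (FVB). The red points of Ccl21a, Ccl8, Ccl19 and Cx3cl1 stand clear of the other groups, and 2 libraries labelled Tg-GRK2 are listed at 0 for Ccl17 and have no point.

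Cxcl12, the ligand of Cxcr4 and Ackr3 that holds haematopoietic and vascular cells in place, fell in reads while its composition changed. The gene lies at chr6:117145496-117158328 on the plus strand (GRCm39, as deposited). Its normalised reads were 4765, 4836 and 4769 in Tg-RKIP hearts, 8791, 8771 and 8706 in the libraries labelled Tg-GRK2, against 7387, 7361 and 7451 in FVB. The 3 groups thus formed 3 narrow, separate clusters. Against FVB the log2 fold change was -0.63 (SE 0.019, adjusted p = 5.54e-18) in Tg-RKIP hearts and 0.24 (SE 0.018, adjusted p = 1.61e-09) in the libraries labelled Tg-GRK2. In TPM, which weights each transcript by its length, the Tg-RKIP libraries were instead the highest, and limma on log2(TPM + 0.1) gave a log2 fold change of 0.33 (adjusted p = 1.41e-05), less than the 0.43 by which the median gene moved on that scale. Cxcl12 is listed with 4 transcripts of 1878, 2894, 3132 and 5627 bases, and the groups differed in how its reads were spread over them.

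The 3 protein-coding transcripts share 267 coding bases and differ only in how the coding sequence ends, so the ends are shown as what tells the isoforms apart. The sequences are those of GENCODE M21 on GRCm38 (plus strand, stop codon left out), whose transcript lengths equal the deposited ones. Lower case marks the last 30 shared coding bases and capitals the bases that only that isoform adds, at chr6:117178584-117178595 for the 3132-base transcript and chr6:117176087-117176176 for the 5627-base transcript.
Cxcl12, 1878 bases: caagagtacctggagaaagctttaaacaag
Cxcl12, 3132 bases: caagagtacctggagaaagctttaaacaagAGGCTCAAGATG
Cxcl12, 5627 bases: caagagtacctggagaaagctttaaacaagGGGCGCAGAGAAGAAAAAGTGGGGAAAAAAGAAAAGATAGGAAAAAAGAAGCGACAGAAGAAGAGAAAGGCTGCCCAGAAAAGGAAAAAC
The 5627-base form carries 30 extra codons and the 3132-base form 4. Such endings correspond to the isoforms known as alpha (no addition), beta and gamma, the last of which has a basic tail that binds heparan sulphate.

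Reads assigned to the 5627-base transcript made up 26.9, 26.2 and 23.6% of all Cxcl12 reads in Tg-RKIP hearts, against 76.0, 78.2 and 76.5% for the group labelled Tg-GRK2, with 70.5, 70.5 and 72.7% in FVB. The share of this gamma-type transcript in the 3 Tg-RKIP libraries thus lay far below that in the other 6. In a fit of 34991 transcripts, of which 34% were called in this comparison, its log2 fold change against FVB was -2.07 (SE 0.050, adjusted p = 3.97e-08). The 1878-base transcript rose by 1.07 (SE 0.050, adjusted p = 1.59e-06) and the 3132-base transcript by 0.70 (SE 0.068, adjusted p = 0.000119), while the rare 2894-base transcript fell (-1.85, SE 0.25, adjusted p = 0.000679). In the libraries labelled Tg-GRK2, where 3.42% of transcripts were called, the 5627-base transcript rose by 0.36 (SE 0.048, adjusted p = 0.00714), and the other 3 did not pass. How the authors divided reads between transcripts that share sequence is not given in the sources used here. The 5627-base transcript has 2456 bases that are in no other listed Cxcl12 transcript, the 1878-base transcript 39 and the 3132-base transcript none, so the longest can be read most directly. Transcript length moved with the fold change over all genes too: the median log2 fold change in Tg-RKIP against FVB was 0.12 for transcripts from 1000 to below 2000 bases and -0.35 for the 4566 transcripts of 5000 bases or more, of which 36.8% fell. The part of that trend in the Cxcl12 result was not tested.

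**Figure D3:**
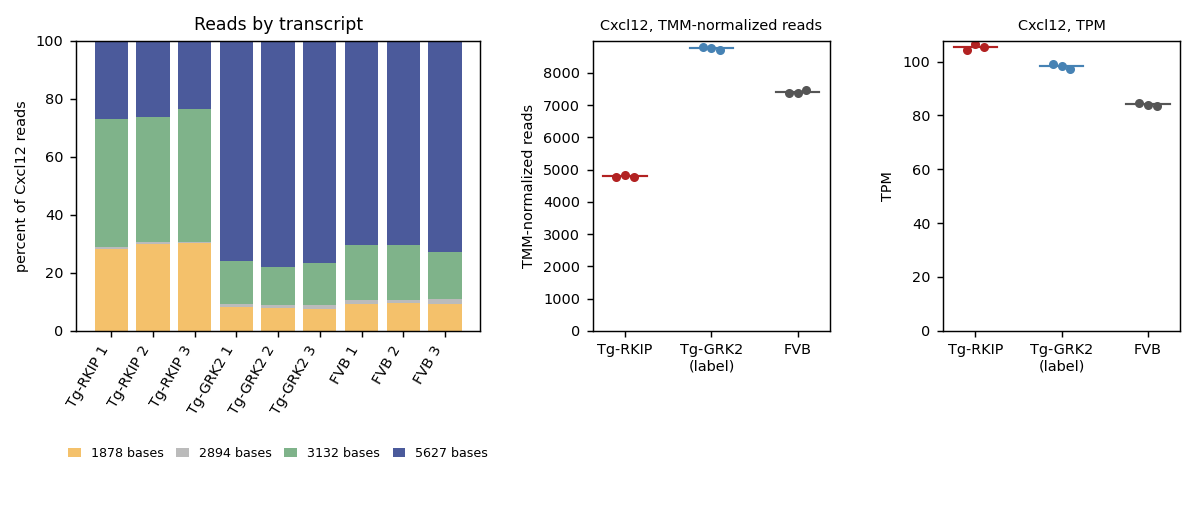
Cxcl12 in the 9 libraries, with the percentage of its reads assigned to each of 4 transcripts (left, stacked bars), its TMM-normalised reads (middle) and its TPM (right, points are libraries and lines are group means, axes from 0). The 5627-base transcript takes 23.6 to 26.9% of reads for Tg-RKIP and 70.5 to 78.2% elsewhere, and Tg-RKIP is the lowest group in reads and the highest in TPM.

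The Cxcl12 receptors moved in opposite directions. Cxcr4, the signalling receptor, had 352, 355 and 366 normalised reads in Tg-RKIP hearts, 243, 235 and 251 in the libraries labelled Tg-GRK2, against 254, 224 and 215 in FVB. It rose in Tg-RKIP hearts against FVB (log2 fold change 0.63, SE 0.071, adjusted p = 6.48e-08), and its levels were 12.6 ± 0.167 and 6.12 ± 0.561 TPM. Ackr3, the atypical receptor that clears Cxcl12, had 2193, 2201 and 2175 normalised reads in Tg-RKIP hearts, 3190, 3272 and 3209 in the libraries labelled Tg-GRK2, against 2905, 2949 and 2977 in FVB. Its log2 fold change against FVB was -0.43 (SE 0.025, adjusted p = 9.04e-13) in Tg-RKIP hearts and 0.13 (SE 0.024, adjusted p = 0.000329) in the libraries labelled Tg-GRK2. Ackr3 therefore had the same group order as the reads of its ligand. The call in Tg-RKIP hearts was lost under scaling to the library total (-0.051) and in TPM (-0.013).

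The Ccr7 axis, which guides dendritic cells and naive lymphocytes along lymphatic vessels, rose in Tg-RKIP hearts at each of its tested members. Ccl21a had 1839, 1875 and 1768 normalised reads there, 697, 603 and 589 in the libraries labelled Tg-GRK2, against 592, 621 and 600 in FVB. Every Tg-RKIP library was above all others (log2 fold change against FVB 1.60, SE 0.047, adjusted p = 5.18e-18), and the group labelled Tg-GRK2 overlapped FVB (0.06, 95% interval -0.06 to 0.17). Ccl21b, a near-identical copy, was listed at 0 in all libraries, so reads common to both copies may all have been given to Ccl21a. Ccl19, the other Ccr7 ligand, rose further from a lower level, with 96.9, 91.6 and 69.8 normalised reads against 8.05, 13.2 and 5.87 in FVB (log2 fold change 3.21, SE 0.26, adjusted p = 2.50e-10). Its 3 libraries labelled Tg-GRK2, at 15.0, 14.3 and 14.3, lay just above FVB without passing (0.65, adjusted p = 0.216). The receptor Ccr7 had 16, 20 and 13 reads in Tg-RKIP hearts and 1 to 6 in the other 6 libraries (log2 fold change against FVB 1.75, SE 0.47, adjusted p = 0.00226). Ackr4, the scavenger of Ccl19 and Ccl21a, had 464, 488 and 509 normalised reads in Tg-RKIP hearts and 207 to 223 in the other 6 libraries (log2 fold change against FVB 1.16, SE 0.064, adjusted p = 4.13e-13). Exons of Ackr4 share 479 bases with Acad11 on the opposite strand in the deposited coordinates, and Acad11 changed the other way, by -0.73. Of 5 lymphatic endothelial markers tested 3 rose and Prox1 fell (-0.64), with a median log2 fold change of 0.42, and their summed level was 63.6 to 64.4 TPM in Tg-RKIP hearts and 43.2 to 44.1 TPM in FVB, with none at 0. On that scale the median gene was itself 0.43 (log2) higher in Tg-RKIP hearts. Dendritic cell markers rose for 3 of 5 tested, among them Flt3 (2.35), and fell for Zbtb46 (-0.47), with a summed level of 11.4 to 12.3 TPM against 6.48 to 6.81 TPM. The part of these cells in the result was not tested.

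Cxcl13, which attracts B cells, had 355, 350 and 354 normalised reads in Tg-RKIP hearts, 180, 156 and 167 in the libraries labelled Tg-GRK2, against 154, 138 and 167 in FVB. It rose in Tg-RKIP hearts (log2 fold change against FVB 1.21, SE 0.081, adjusted p = 1.16e-11). Its receptor Cxcr5 had 13, 15 and 16 reads in Tg-RKIP hearts and 4 to 8 in the other libraries, and its call (0.91, SE 0.41, adjusted p = 0.0499) was lost under 12 of 17 alternatives, among them DESeq2. All 6 B cell markers tested rose in Tg-RKIP hearts and 3 of 6 in the libraries labelled Tg-GRK2, with summed levels of 7.69 to 9.04, 1.76 to 2.47 and 1.06 to 1.49 TPM in Tg-RKIP, labelled Tg-GRK2 and FVB hearts. Their part in the level of Cxcl13 and Cxcr5 was not tested.

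Epithelial and stromal homeostatic ligands stayed closer to the controls. Cxcl14, a ligand expressed in fibroblasts and adipose tissue, had a log2 fold change of 0.02 (95% interval -0.12 to 0.16) in Tg-RKIP against FVB. For Ccl27a and Ccl25 the values were 0.02 (-0.25 to 0.30) and -0.12 (-0.57 to 0.33). The 19 transcripts listed for Ccl27a make its value uncertain, since the most abundant of them alone gave -2.21 (adjusted p = 0.158). Ccl28, a mucosal ligand, had 18.6, 25.4 and 20.1 normalised reads in Tg-RKIP hearts and 15.0, 15.3 and 8.22 in FVB. It passed narrowly (0.74, SE 0.31, adjusted p = 0.0374), and the call was lost under 7 of 17 alternatives, among them DESeq2, the leaving out of replicate 3 of FVB (0.51) and that of replicate 2 (0.58) or 3 (0.78) of Tg-RKIP.

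The membrane-anchored chemokines and their receptors rose together in Tg-RKIP hearts. Cx3cl1, or fractalkine, presented by activated endothelium, had 834, 900 and 866 normalised reads there, 325, 321 and 324 in the libraries labelled Tg-GRK2, against 344, 315 and 291 in FVB (log2 fold change of Tg-RKIP against FVB 1.45, SE 0.056, adjusted p = 6.68e-16). The Tg-RKIP libraries were all above the others, and the remaining groups overlapped. Its receptor Cx3cr1, carried by monocytes and resident macrophages, had 303, 346 and 294 normalised reads in Tg-RKIP hearts, 208, 264.5 and 224 in the libraries labelled Tg-GRK2, against 187, 175 and 196 in FVB. Cx3cr1 rose against FVB in both transgenic groups, by 0.77 (SE 0.092, adjusted p = 1.69e-07) and by 0.32 (SE 0.10, adjusted p = 0.0235). The second call was lost without replicate 2 of the libraries labelled Tg-GRK2 (0.22) and without replicate 1 (0.32) or 2 (0.27) of FVB. It was also lost with limma on log2(TPM + 0.1) (0.34) and log2(TPM + 1) (0.26). Of 6 endothelial cell markers tested 3 rose and 3 fell in Tg-RKIP hearts, with a median log2 fold change of -0.19. Their summed level was 429 to 452 TPM against 247 to 249 TPM in FVB. Their part in the results of Cx3cl1 and of Ackr1, given below, was not tested.

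Cxcl16, which anchors Cxcr6-bearing T cells and also takes up oxidised lipoprotein, had 685, 674 and 642 normalised reads in Tg-RKIP hearts against 392.1, 353 and 328 in FVB (log2 fold change 0.90, SE 0.063, adjusted p = 2.42e-11). It shares 552 exonic bases with Zmynd15 on the other strand, a gene at 1.32 ± 0.28 TPM in FVB against 10.2 TPM for Cxcl16, and Zmynd15 rose as well (0.59, adjusted p = 0.00136). Cxcr6 separated all 3 groups, with 93.1, 85.7 and 94.6 normalised reads in Tg-RKIP hearts, 22.5, 9.92 and 19.0 in the libraries labelled Tg-GRK2, against 28.7, 35.6 and 28.2 in FVB. It rose in Tg-RKIP hearts (1.55, SE 0.20, adjusted p = 3.38e-07) and fell in the libraries labelled Tg-GRK2 (-0.84, SE 0.27, adjusted p = 0.0246). The fall was lost without replicate 2 of the libraries labelled Tg-GRK2 (-0.58) or replicate 2 of FVB (-0.72). It was also lost with limma on log2(TPM + 0.1) (-0.73) and for the most abundant transcript alone (-0.84).

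On chromosome 11 the monocyte-attracting ligands Ccl2, Ccl7, Ccl12 and Ccl8 lie in 1 cluster with the eotaxin Ccl11, between chr11:81926397 and chr11:82007625 (GRCm39), and of these genes Ccl11 alone fell in Tg-RKIP against FVB. Ccl8, the last of these genes, had 328, 350 and 359 normalised reads in Tg-RKIP hearts, 106, 127 and 119 in the libraries labelled Tg-GRK2, against 85.1, 76.3 and 70.4 in FVB. The 3 groups did not overlap, and Ccl8 rose by 2.16 (SE 0.098, adjusted p = 1.02e-14) in Tg-RKIP hearts and by 0.60 (SE 0.12, adjusted p = 0.000740) in the libraries labelled Tg-GRK2. Ccl2, the main monocyte chemoattractant, had 88.5, 77.0 and 78.4 normalised reads in Tg-RKIP hearts against 55.2, 50.9 and 43.4 in FVB and rose by 0.70 (SE 0.17, adjusted p = 0.000806). Ccl7 rose by 0.81 (SE 0.18, adjusted p = 0.000516). Ccl12, a murine relative of Ccl2, passed with 0.58 (SE 0.21, adjusted p = 0.0170), and not under DESeq2 or without replicate 1 of FVB (0.40) or of Tg-RKIP (0.53). None of these 3 passed in the libraries labelled Tg-GRK2 against FVB.

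Ccl11, or eotaxin, which recruits eosinophils, had 65.2, 80.7 and 71.7 normalised reads in Tg-RKIP hearts, 158, 142 and 161 in the libraries labelled Tg-GRK2, against 178, 172 and 196 in FVB. Its fall in Tg-RKIP hearts (-1.31, SE 0.11, adjusted p = 9.70e-10) kept its side of the threshold under all 19 alternatives, between -0.78 and -1.41. The difference in the libraries labelled Tg-GRK2 did not pass (-0.24, adjusted p = 0.103), although the 3 lay below the 3 of FVB. Ccl24, the second eotaxin and a product of alternatively activated macrophages, went the other way, with 130, 102 and 146 normalised reads in Tg-RKIP hearts against 88.5, 68.2 and 82.2 in FVB (0.65, SE 0.15, adjusted p = 0.000554), a call lost when only its most abundant transcript was counted (0.75). Their common receptor Ccr3 was below the filter, with 11, 11 and 9 reads in Tg-RKIP hearts, 2 in each library labelled Tg-GRK2 and 1, 3 and 0 in FVB. All 6 fibroblast markers tested rose in Tg-RKIP hearts (summed level 2228 to 2231 TPM against 858 to 891 TPM in FVB). Ccl11 is a fibroblast product in many tissues, and the part of these cells in its fall was not tested.

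A second cluster on chromosome 11 holds the ligands of Ccr1, and its tested members rose in Tg-RKIP hearts. Ccl6, made by macrophages, had 549, 514 and 530 normalised reads there against 325, 353 and 344 in FVB (log2 fold change 0.64, SE 0.064, adjusted p = 9.31e-09). Ccl9 rose by 0.75 (SE 0.097, adjusted p = 4.63e-07). Ccl5, a T cell product also known as RANTES, had 37.2, 42.15 and 44.0 normalised reads in Tg-RKIP hearts, 8.59, 11.0 and 16.2 in the libraries labelled Tg-GRK2, against 23.0, 13.2 and 22.3 in FVB, and rose in Tg-RKIP hearts (1.09, SE 0.27, adjusted p = 0.000989). Ccl3 and Ccl4, the macrophage inflammatory proteins, were below the filter. Ccl4 had 6, 10 and 15 reads in Tg-RKIP hearts and 2 to 4 in the other libraries. Ccl3 had 7, 17 and 13 reads in Tg-RKIP hearts, 1 in each library labelled Tg-GRK2, against 1, 3 and 3 in FVB, which gives a ratio of Tg-RKIP to labelled Tg-GRK2 hearts of 10.2 (95% counting interval 3.23 to 51.7). Ccr1 rose with its ligands, from 59.8, 54.9 and 50.5 normalised reads in FVB to 87.5, 92.3 and 91.7 in Tg-RKIP hearts (0.72, SE 0.14, adjusted p = 0.000115). Of 8 macrophage markers 7 rose and 1 fell in Tg-RKIP hearts, with a summed level of 640 to 656 TPM against 260 to 266 TPM in FVB, and their part in these results was not tested.

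Cxcr2, the neutrophil receptor, showed the largest log2 fold change of the tested members in Tg-RKIP against FVB, within its SE of Ccl19 (3.21). Its reads were 21, 25 and 14 in Tg-RKIP hearts, 3, 2 and 5 in the libraries labelled Tg-GRK2, against 2, 2 and 0 in FVB (log2 fold change of Tg-RKIP against FVB 3.43, SE 0.55, adjusted p = 9.86e-06). Cxcr1 was listed at 0 throughout. Of the Cxcr2 ligands, Cxcl5 had 37.2, 37.1 and 27.7 normalised reads in Tg-RKIP hearts against 5.75, 15.3 and 8.22 in FVB (1.77, SE 0.33, adjusted p = 5.42e-05). Cxcl1 had 39.1, 47.2 and 50.6 normalised reads in Tg-RKIP hearts, 26.8, 25.3 and 20.9 in the libraries labelled Tg-GRK2, against 33.3, 29.5 and 36.4 in FVB. It passed narrowly against FVB (0.47, SE 0.21, adjusted p = 0.0455), a call lost with DESeq2 and without any single FVB library, and more clearly against the libraries labelled Tg-GRK2 (0.91, SE 0.22, adjusted p = 0.000693). Cxcl2 and Cxcl3 had at most 5 reads in any library. The neutrophil markers S100a8 (4.06), S100a9 (2.83) and Csf3r (1.58) rose with Cxcr2, the summed level of the list being 9.53 to 10.6 TPM in Tg-RKIP hearts and 0.564 to 1.52 TPM in FVB, while Ly6g was at 0 in 8 libraries and had 1 read in the other. Their part in the Cxcr2 result was not tested.

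Neither of the 2 tested interferon-inducible ligands of Cxcr3 passed as higher in Tg-RKIP against FVB. Cxcl9 had 19.6, 32.7 and 31.5 normalised reads in Tg-RKIP hearts, 26.8, 16.5 and 18.1 in the libraries labelled Tg-GRK2, against 56.3, 42.7 and 50.5 in FVB. It fell in both transgenic groups, by 0.82 on the log2 scale (SE 0.24, adjusted p = 0.00418) in Tg-RKIP hearts and by 1.28 (SE 0.26, adjusted p = 0.000825) in the libraries labelled Tg-GRK2. The first call was lost under scaling to the library total (-0.44). Cxcl10 had 11.2, 19.6 and 20.1 normalised reads in Tg-RKIP hearts, 4.29, 5.51 and 6.66 in the libraries labelled Tg-GRK2, against 13.8, 13.2 and 21.1 in FVB. It fell in the libraries labelled Tg-GRK2 (-1.51, SE 0.42, adjusted p = 0.0107), a call lost without replicate 1 of that group (-1.36) or replicate 3 of FVB (-1.27), and did not pass in Tg-RKIP hearts (0.10, 95% interval -0.54 to 0.74). Cxcl11 had 0 to 7 reads. The receptor Cxcr3, carried by activated T cells, had 31.7, 33.4 and 41.1 normalised reads in Tg-RKIP hearts, 5.37, 6.61 and 8.56 in the libraries labelled Tg-GRK2, against 8.05, 12.2 and 12.9 in FVB, and rose in Tg-RKIP hearts (1.66, SE 0.29, adjusted p = 2.71e-05). In Tg-RKIP hearts Cxcr3 was thus higher and Cxcl9 lower than in FVB. All 7 T cell markers tested rose in Tg-RKIP hearts and none passed in the libraries labelled Tg-GRK2 against FVB, with summed levels of 7.54 to 11.7, 2.20 to 2.38 and 3.07 to 3.17 TPM in Tg-RKIP, labelled Tg-GRK2 and FVB hearts. None of these markers was at 0 in every library of a group, and their part in the Cxcr3 and Cxcr6 results was not tested.

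Irf1, an interferon-induced transcription factor, fell in both transgenic groups. The fall was 0.19 (SE 0.042, adjusted p = 0.000393) in Tg-RKIP hearts and 0.51 (SE 0.045, adjusted p = 1.95e-08) in the libraries labelled Tg-GRK2. The first is smaller than the 0.38 by which the median gene moved in Tg-RKIP against FVB under scaling to the library total. Its part in the values of Cxcl9, which fell in both groups, and of Cxcl10, which did not pass in Tg-RKIP hearts, was not tested.

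**Figure D4:**
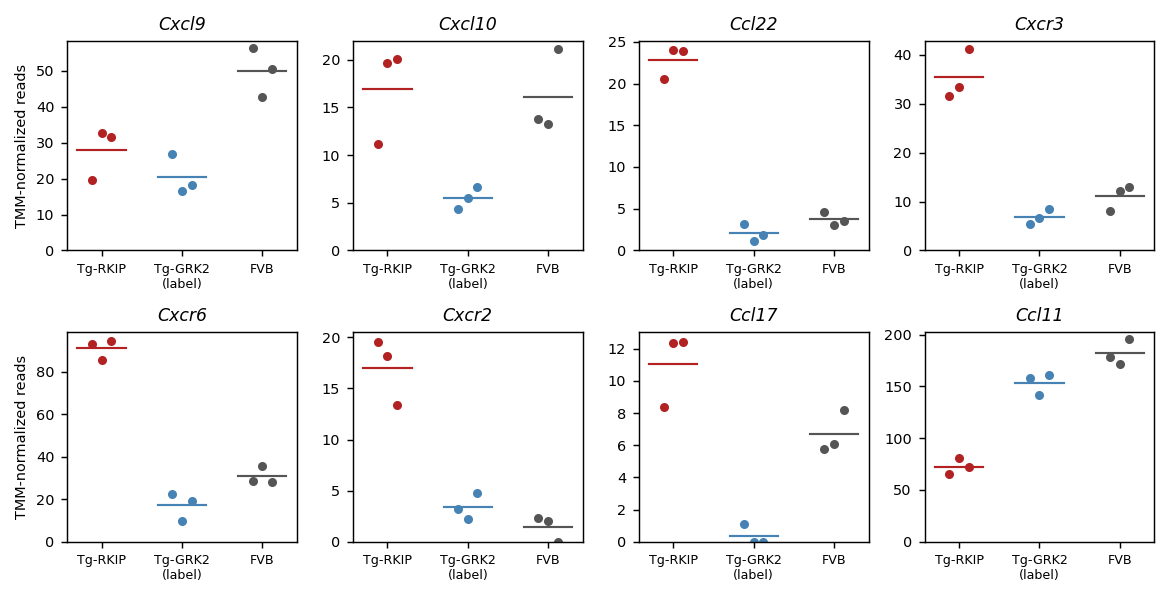
TMM-normalised reads per library (points, with group means as lines, axes from 0) of Cxcl9, Cxcl10, Ccl22, Cxcr3, Cxcr6, Cxcr2, Ccl17 and Ccl11 in the 3 groups. Cxcl9 is highest in all 3 FVB libraries, Ccl22, Cxcr3, Cxcr6 and Cxcr2 in all 3 Tg-RKIP libraries, and Cxcl10 and Ccl17 are lowest in the libraries labelled Tg-GRK2.

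The proximal promoters of Cxcl9, Cxcl10 and Cxcl1 are shown because these genes respond to interferon or NF-kappa B signalling and took different courses here. The RefSeq promoter sequences (GRCm38.p6) of 42 of the 57 members were matched by symbol, 49 promoters in all, and the 250 bases before each start were searched on both strands for the interferon response element (TTTC and TTTC with 2 free bases between), the kappa B motif (GGGA, 1 free base, TT, 1 free base, CC) and the gamma-activated site (TTC and GAA with 3 free bases between). Sequences are given up to the transcription start, in the direction of transcription, with matched motifs in capitals. The windows are chr5:92328080-92328229 (minus strand), chr5:92348890-92349119 (minus strand) and chr5:90891125-90891244 (plus strand).
Cxcl9: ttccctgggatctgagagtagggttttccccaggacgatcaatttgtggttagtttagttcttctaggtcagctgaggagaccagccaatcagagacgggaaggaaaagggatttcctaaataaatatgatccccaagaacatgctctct
Cxcl10: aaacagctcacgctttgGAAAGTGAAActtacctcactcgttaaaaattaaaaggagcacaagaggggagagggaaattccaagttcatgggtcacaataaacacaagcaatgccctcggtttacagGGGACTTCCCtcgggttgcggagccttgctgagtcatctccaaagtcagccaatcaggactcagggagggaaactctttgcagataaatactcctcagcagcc
Cxcl1: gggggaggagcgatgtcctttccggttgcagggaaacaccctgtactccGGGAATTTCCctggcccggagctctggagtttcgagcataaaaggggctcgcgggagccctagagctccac
Cxcl10 held the interferon response element 213 bases and the kappa B motif 103 bases before its start, and Cxcl1 the kappa B motif 71 bases before. These letters were not in the Cxcl9 window. The search finds exact letters and spacing only, so a near match such as gggatttcc in that window is missed. The absent match is no evidence that the promoters differ. Over all 32851 promoters, 2.98% held the interferon response element, 0.98% the kappa B motif and 7.02% the gamma-activated site. Among the members they were found in 3 genes (Ccl19, Cxcl10 and Cxcl14), 6 genes (Ccr3, Ccr6, Cxcl1, Cxcl2, Cxcl3 and Cxcl10) and 3 genes (Ccl17, Ccr6 and Cxcl14). A match is a match of letters and no measurement of binding.

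The ligands of Ccr4, which attract regulatory and type 2 helper T cells, separated the transgenic groups. Ccl22 had 22, 33 and 25 reads in Tg-RKIP hearts, 3, 1 and 2 in the libraries labelled Tg-GRK2, against 4, 3 and 3 in FVB. It rose in Tg-RKIP hearts (log2 fold change against FVB 2.59, SE 0.39, adjusted p = 4.48e-06). Ccl17 was below the filter, with 9, 17 and 13 reads in Tg-RKIP hearts, 1, 0 and 0 in the libraries labelled Tg-GRK2, against 5, 6 and 7 in FVB. The ratio of FVB to the libraries labelled Tg-GRK2 was 19.2 (95% counting interval 3.04 to 801). Ccl22, Cx3cl1 and Ccl17 are neighbours on chromosome 8 (chr8:95472218-95538664, GRCm39), and each was highest in the 3 Tg-RKIP libraries. Ccr4, the receptor of Ccl22 and Ccl17, had 0 to 3 reads in every library.

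The remaining atypical receptors rose in Tg-RKIP hearts as well. Ackr1, the Duffy antigen receptor of venular endothelium and red cells, had 31, 26 and 32 reads there, 4, 5 and 8 in the libraries labelled Tg-GRK2, against 3, 7 and 8 in FVB (log2 fold change of Tg-RKIP against FVB 1.93, SE 0.37, adjusted p = 9.03e-05). It shares 361 exonic bases on the same strand with Cadm3, which also rose (0.90). Counting only the most abundant transcript ended the Tg-RKIP calls of Ackr1 (2.36) and Ackr2 (0.51). Ackr2, the scavenger of inflammatory CC chemokines, had 61.5, 79.2 and 65.9 normalised reads in Tg-RKIP hearts, 59.1, 57.3 and 53.3 in the libraries labelled Tg-GRK2, against 41.4, 39.7 and 38.7 in FVB. Against FVB it rose by 0.79 (SE 0.17, adjusted p = 0.000281) and by 0.50 (SE 0.18, adjusted p = 0.0498). The smaller difference passed narrowly and was lost under most alternatives, the leaving out of any single library among them.

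Among members with few reads, the lung-type ligands stood apart. Cxcl15, known from airway epithelium, had 3, 3 and 6 reads in the libraries labelled Tg-GRK2 but none in the FVB libraries, at least 3.74-fold higher with a floor of 3 reads over the group (the exact 95% counting interval starts at 2.60), and 1, 2 and 0 reads in Tg-RKIP hearts. Cxcl17, a mucosal ligand, had 7, 8 and 7 reads in the group labelled Tg-GRK2, 4, 5 and 4 in Tg-RKIP hearts and 1 in each FVB library, a ratio of labelled Tg-GRK2 to FVB hearts of 6.86 (95% counting interval 2.06 to 35.8). Markers of airway epithelium had the same order: the secretoglobin Scgb1a1 had 388, 510 and 395 reads in Tg-RKIP hearts, 1190, 1085 and 1284 in those labelled Tg-GRK2 and none in FVB. All 3 markers of that list that passed the filter rose in both transgenic groups, and Sftpc had at most 2 reads. The summed level of the list was 147 to 156, 58.9 to 62.1 and 0.284 to 0.560 TPM in labelled Tg-GRK2, Tg-RKIP and FVB hearts, and its part in these 2 ligands was not tested.

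The 20 members below the filter had at most 17 reads in any library, and 4 of them had none (Ccl21b, Ccl26, Ccl27b and Cxcr1). Ccr4, Ccr6, Ccr8, Ccl1, Ccl20 and Cxcl3 stayed at 6 reads or fewer, too few to show a difference between groups at this depth. Ccr10 had 4 to 15 reads without a clear order. Ccr9 had 6.90, 11.2 and 11.7 normalised reads in FVB, above the other 6 libraries at 1.91 to 5.81, but it was not tested and overlaps exons of 3 other genes.

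Of 25 genes tested that carry the signal of chemokine receptors, 18 rose and 1 fell (Jak2, -0.57) in Tg-RKIP hearts, with a median log2 fold change of 0.35. The share called, 76%, was near the 73.9% of all genes, of which 36.8% rose and 37.1% fell. The largest rises were in the kinase Fgr (2.25, SE 0.29, adjusted p = 4.33e-07), the kinase Ptk2b (1.65, SE 0.054, adjusted p = 3.08e-17) and the GTPase Rac2 (1.36, SE 0.10, adjusted p = 1.40e-10). Gnai2, the G protein subunit through which most chemokine receptors act and the most abundant gene of the list, rose by 0.72 (SE 0.020, adjusted p = 1.34e-18) and reached 249 ± 2.57 TPM against 113 ± 2.48 TPM in FVB. Arrb2, the arrestin that internalises these receptors, rose by 0.71 (SE 0.077, adjusted p = 3.37e-08). In the libraries labelled Tg-GRK2, 3 of the 25 rose and 4 fell, 28% together against 24.5% of all genes.

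Chemokine-like ligands, decoys and processing enzymes were divided. In Tg-RKIP hearts 8 of 14 rose and 4 fell, against 36.8% and 37.1% of all genes. Ppbp, a platelet chemokine outside the name rule, had 101, 137 and 120 reads there, 127, 120 and 141 in the libraries labelled Tg-GRK2, against 24, 21 and 23 in FVB, and rose against FVB by 2.02 (SE 0.16, adjusted p = 2.90e-10) and by 2.41 (SE 0.16, adjusted p = 2.27e-10). The atypical chemerin receptor Ccrl2 fell in Tg-RKIP hearts (-1.09, SE 0.11, adjusted p = 1.02e-08). Cd74, the receptor of Mif and the invariant chain of class II antigen presentation, rose by 0.48 (SE 0.023, adjusted p = 3.36e-14) in Tg-RKIP hearts and fell by 1.25 (SE 0.026, adjusted p = 3.34e-19) in the libraries labelled Tg-GRK2.

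Of 13 tested inducers of chemokines, 9 rose and 2 fell in Tg-RKIP hearts, and 1 rose and 4 fell in the libraries labelled Tg-GRK2. Called together were 84.6% and 38.5% of the list, against 73.9% and 24.5% of all genes. Il6 had 18, 29 and 27 reads in Tg-RKIP hearts, 2, 3 and 4 in the libraries labelled Tg-GRK2, against 3, 0 and 2 in FVB (log2 fold change of Tg-RKIP against FVB 3.43, SE 0.52, adjusted p = 4.93e-06). Il1b rose by 1.01 (SE 0.27, adjusted p = 0.00205). The NF-kappa B subunits Rela (0.59), Relb (0.78) and Nfkb2 (0.63) rose and Nfkb1 did not pass (-0.07). Interferon gamma itself (Ifng) was at 0 to 4 reads in every library, too few for a comparison with Cxcl9.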

How the data were processed

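Hearts were profiled by single-read sequencing of 50 bases from fragmented, random-primed mRNA. The authors deposited, per transcript and library, read counts and TPM (counts scaled for transcript length and library total); the submitters' processing notes name GRCm39, and the aligner and counter are not given in the sources used here. The deposited counts of all transcripts of a gene name were summed here. Groups were tested with edgeR 4.0.16 (quasi-likelihood test, TMM factors, filterByExpr, all 9 libraries, R 4.3.3), with Benjamini-Hochberg adjustment over all genes and a threshold of 0.05. Normalised reads are counts divided by effective library size relative to the mean. Fold changes compare normalised counts. Ratios of low counts carry exact 95% intervals, which cover counting error only. The 37 tested members and the lists were chosen with earlier results of these data known. Genes are named if they reached a mean of 20 reads in a group, passed a test or were at 0 in 1 group only; other members by counts, and a few named for contrast were chosen after their values were seen. Of the tested members 1 enters the counts and is not reported here by itself. The transcript fit was added after the gene values were seen. On simulated counts of 15255 genes, 196 of them changed, the test recovered 86.2% of the changed genes. Of its calls 9.14% were false, more than the threshold of 0.05 aims at. In the data 73.9% of genes were called in Tg-RKIP against FVB, so the simulation does not show how the test does with so many changes. Exon overlaps are from the deposited transcript coordinates (GRCm39), the Cxcl12 coding ends from GENCODE M21 (GRCm38) and the promoters from RefSeq. Coordinates of the builds were not mixed. Limma 3.58.1 on log2 TPM and DESeq2 1.42.0 were alternatives.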

Additional observations from a re-analysis of the deposited data

How the results depend on the processing

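The counts of members higher in Tg-RKIP hearts (28 against FVB and 26 against the libraries labelled Tg-GRK2) stayed within 1.5 times of these values under all alternatives run. The 4 members lower in Tg-RKIP against FVB became 2 under scaling to the library total and 1 with limma on log2(TPM + 0.1) or log2(TPM + 1). Those scalings move the median of all genes by 0.38, 0.43 and 0.37, and the share of higher genes among calls from 49.8% to 78.6%, 82% and 82.1%. In the libraries labelled Tg-GRK2, the 5 higher members ranged from 3 (without FVB replicate 1, and without FVB replicate 2) to 5 when single libraries were left out, and the 3 lower members became 1 with limma on log2(TPM + 0.1). With the replicate number as a block, 25 members were higher and 4 lower in Tg-RKIP against FVB, and 4 higher and 3 lower in the libraries labelled Tg-GRK2. Deviations of same-numbered libraries correlated at -0.041 to 0.042, so the numbers do not pair the samples. Of 1378 values of single genes under alternatives, 1279 kept direction and side of the threshold, 75 were no longer called, 7 became called and 17 turned, 8 of these with a single library left out.

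Those that turned against FVB in Tg-RKIP hearts were Cxcl12 (0.33 and 0.32 with limma on TPM), Ccl25 (0.25 under scaling to the library total, 0.26 and 0.16 with limma, and -0.28 to 0.018 with a library left out), Ccl27a (-2.21 for its most abundant transcript, and -0.14 to 0.15 with a library left out), Cxcl14 (-0.077 for its most abundant transcript, and -0.059 to 0.091 with a library left out) and Cxcl10 (down to -0.034, -0.033 or -0.020 with a library left out). Against the libraries labelled Tg-GRK2, Cxcl12 turned to 0.10 with limma at either pseudocount. Ccl27a and Cxcl14 became called under scaling to the library total (0.40 and 0.39). They were also called with limma on log2(TPM + 0.1), at 0.52 and 0.43, and on log2(TPM + 1), at 0.48 and 0.40. These settings moved the median gene by 0.38, 0.43 and 0.37. The cause of the turns was not tested. Counts below about 20 reads limit the low members.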
